A study of Mus musculus with 6 samples.

Results

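The genes described here are 10 imprinted genes with known roles in growth: H19, Meg3, Rian, Peg3, Ndn, Plagl1, Grb10, Cdkn1c, Peg10 and Dlk1. They were chosen by symbol, as rows of the normalized count table whose Ensembl identifier carries that symbol; the rule itself uses no measured value. All 10 were found among the 26789 genes of the table, and 9 averaged 10 normalized counts or more across the 6 libraries, as did 18007 genes in all. H19 did not reach that mean and is given by its values only.

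The libraries came from microglia (brain-resident immune cells) of mouse pups whose mothers had eaten either a standard or a low-sodium chow, and the comparison asks whether early maternal sodium restriction left a difference in microglial RNA. The group called control (Control Diet (Maternal) in the labels) had 3 libraries from C57Bl/6 pups of dams on standard chow. The E3–E12 diet group (Low Sodium Diet (Maternal) in the labels) had 3 libraries from pups of dams that ate low-sodium chow from E3 to E12 of pregnancy and standard chow afterwards. By the study's methods, cells were taken at P15 from the rostral nucleus of the solitary tract, the first taste relay of the brainstem, with magnetic beads against CD11b, and each library pooled littermates. Each library is therefore 1 litter, and animals of both sexes were used in the study. The labels describe laser microdissection and another RNA kit, so the isolation is uncertain, and sorted CD11b+ cells can include other myeloid cells.

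An imprinted gene is transcribed mainly from the allele inherited from 1 parent. DNA methylation or other marks, many of them set in the germ line, differ between the parental alleles. Many paternally expressed genes promote growth of the fetus and placenta, whereas many maternally expressed genes restrain it. Several members of this group are high in embryonic tissue and fall after birth, and their level has been studied as a target of the maternal diet. The counts do not separate the parental alleles, so they give the level of each gene and not its imprint.

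Meg3 (ENSMUSG00000021268, chr12:109541001-109571726, + strand, GRCm38) and Rian (ENSMUSG00000097451, chr12:109603940-109661716, + strand) are maternally expressed long noncoding RNAs of 1 imprinted domain, which also holds the paternally expressed Dlk1 (ENSMUSG00000040856, chr12:109452823-109463336, + strand). H19 (ENSMUSG00000000031, chr7:142575529-142578143, - strand) is a maternally expressed noncoding RNA of chromosome 7. H19, Meg3 and Rian also carry the genes of small RNAs: 1 miRNA gene in H19, 2 in Meg3, and 4 miRNA and 13 snoRNA genes in Rian. Mature sequences from RefSeq (GRCm38.p6) are shown for 1 miRNA gene of each host, because these small RNAs are part of what a host transcript can produce, with the seed (bases 2 to 8) in capitals:
miR-675-5p (H19): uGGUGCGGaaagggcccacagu
miR-675-3p (H19): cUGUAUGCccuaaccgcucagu
miR-770-5p (Meg3): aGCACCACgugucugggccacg
miR-770-3p (Meg3): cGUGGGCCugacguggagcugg
miR-370-5p (Rian): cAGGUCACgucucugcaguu
miR-370-3p (Rian): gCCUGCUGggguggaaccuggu

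No seed is shared among these sequences. The libraries measured the host RNAs, and mature miRNAs were not measured.

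RefSeq start-site windows, 250 bases before to 50 bases after a start, were matched for 7 of the 10 members. They are shown for the 3 genes of the chromosome 12 domain and for Peg3 and Grb10, which had their highest value in replicate 1 of both diets, as described with the values. Ndn and Plagl1 had the same pattern, and their windows are not shown. The windows are chr12:109540746-109541045 (+) for Meg3, chr12:109603695-109603994 (+) for Rian, chr12:109452573-109452872 (+) for Dlk1, chr7:6730370-6730669 (-) for Peg3 and chr11:12037371-12037670 (-) for Grb10, in GRCm38.p6. Whether an imprint lies in any of these windows was not examined. Each window is written 5′ to 3′ on the strand of its gene, and capitals mark CpG dinucleotides, at which DNA can be methylated:
Meg3: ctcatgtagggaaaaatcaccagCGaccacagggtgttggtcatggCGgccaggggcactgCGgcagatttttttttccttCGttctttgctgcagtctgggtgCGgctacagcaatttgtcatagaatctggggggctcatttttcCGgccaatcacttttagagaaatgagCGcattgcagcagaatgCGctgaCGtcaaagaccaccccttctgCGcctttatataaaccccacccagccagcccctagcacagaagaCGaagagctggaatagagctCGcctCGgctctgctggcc
Rian: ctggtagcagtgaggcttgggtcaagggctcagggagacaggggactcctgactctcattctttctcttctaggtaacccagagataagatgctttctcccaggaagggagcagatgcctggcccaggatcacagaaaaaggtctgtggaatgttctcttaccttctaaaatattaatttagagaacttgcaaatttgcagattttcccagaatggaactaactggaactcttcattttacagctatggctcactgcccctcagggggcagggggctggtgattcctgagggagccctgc
Dlk1: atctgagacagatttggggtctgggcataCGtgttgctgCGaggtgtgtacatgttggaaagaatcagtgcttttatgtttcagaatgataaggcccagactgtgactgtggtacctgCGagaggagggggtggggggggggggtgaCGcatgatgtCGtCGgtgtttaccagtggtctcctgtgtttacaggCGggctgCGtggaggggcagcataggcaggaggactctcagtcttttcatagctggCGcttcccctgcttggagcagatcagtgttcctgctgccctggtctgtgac
Peg3: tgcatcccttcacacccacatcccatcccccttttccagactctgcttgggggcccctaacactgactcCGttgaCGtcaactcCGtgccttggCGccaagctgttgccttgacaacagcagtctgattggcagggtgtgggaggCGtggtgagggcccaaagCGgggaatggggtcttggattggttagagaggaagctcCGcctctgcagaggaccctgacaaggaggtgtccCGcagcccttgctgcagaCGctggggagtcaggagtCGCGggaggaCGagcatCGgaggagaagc
Grb10: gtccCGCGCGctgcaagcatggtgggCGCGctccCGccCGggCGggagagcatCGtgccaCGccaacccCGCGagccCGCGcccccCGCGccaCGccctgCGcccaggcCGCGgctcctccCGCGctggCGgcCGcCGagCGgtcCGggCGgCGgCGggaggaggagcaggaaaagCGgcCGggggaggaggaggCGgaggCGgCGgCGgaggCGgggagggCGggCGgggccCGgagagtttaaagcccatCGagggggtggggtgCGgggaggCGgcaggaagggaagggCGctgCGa

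The Grb10 window held 45 CpG dinucleotides, more than 98.1% of the 32851 promoter windows of RefSeq, whose median was 7. The windows shown for Meg3 and Peg3 held 13 each, that of Dlk1 held 9 and that of Rian held 0. RefSeq gives a second start for Grb10 and for Meg3, not shown. The second Grb10 window held 9 CpG dinucleotides, and the second Meg3 window held 1 and neither of the motifs named next. Searched on both strands, the cAMP response element TGACGTCA was present once in the Meg3 window shown and once in the Peg3 window, and in 1.79% of all windows. The TATA box TATAAA, present in 13.6% of all windows, was found in the Meg3 window shown and in none of the other 4 shown. These matches describe the letters only, and the windows carry no measurement in these data.

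The labelled cell type was checked with marker genes. All 10 microglia markers, among them Cx3cr1, P2ry12 and Tmem119, were detected in every library, and their summed normalized counts ran from 93062 to 508790. Markers of other cells were detected as well, although the study's flow cytometry found CD11b and the leukocyte protein CD45 on the large majority of sorted cells. The 8 astrocyte markers summed to between 1835 and 9877, the 9 neuron markers to between 854 and 2165, and the 7 oligodendrocyte markers to between 5477 and 43450. Control replicate 2 stood apart from the other libraries. It had the highest total of normalized counts (17204618, against 9407141 to 14656956 elsewhere) and 10640 genes listed at 0, against 3459 to 7135 elsewhere. In it the neuron markers Rbfox3, Stmn2 and Syt1 and the astrocyte markers Gfap and Aldh1l1 were listed at 0. The number of reads behind a value is not known, because the table holds scaled values, so no counting error can be given.

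For none of the members was the difference between diets larger than the spread between libraries. Of the 9 members tested, 0 passed an adjusted p of 0.1 in limma with Benjamini-Hochberg adjustment over all 18007 genes, and the adjusted p was 0.999 for all of them. No gene of the whole table passed either (0%, smallest adjusted p = 0.225, limma). The study reported genes past the same threshold with DESeq2, Notch1 and Hes1 among them and no member. The fit here used another method on scaled values, and why the calls differ was not tested. An unadjusted p under 0.05 was found for 0 of the 9 members and for 327 genes (1.82% of those tested). Complete separation of the diet groups was found for 0 of the 9 members and for 1062 genes (5.90%). Fold changes are given on the log2(normalized count + 1) scale, E3–E12 diet against control, which understates the change of low genes. Values of the 3 libraries of a diet are given in the order of replicates 1, 2 and 3. An exact permutation test over 20 splits of 3 libraries against 3 cannot go below p = 0.1.

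**Figure D1:**
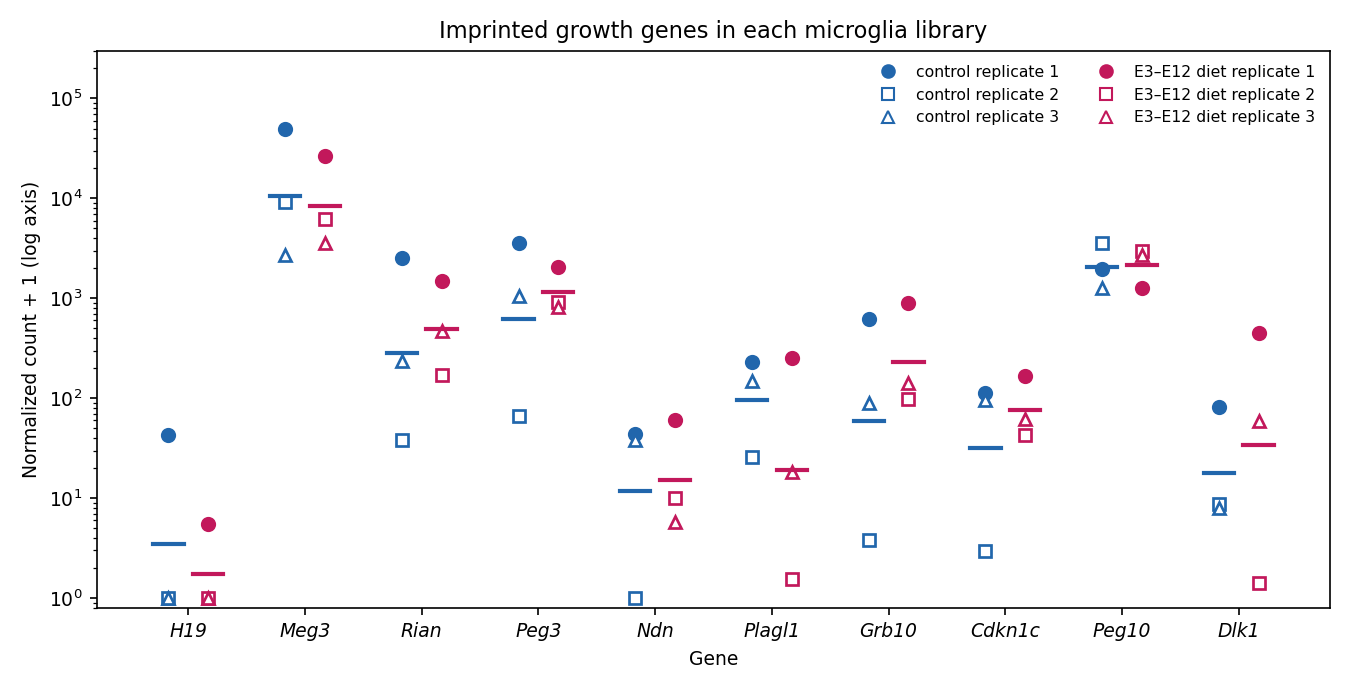
Normalized count + 1 (vertical log axis) of each member in each library, controls in blue and E3–E12 diet in magenta, with filled circles for replicate 1, squares for replicate 2 and triangles for replicate 3; bars give the mean of the log2 values, n = 3 libraries. The filled circle is the highest point of its group in both diets for every gene except Peg10, and the diet groups overlap for every gene.

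Of the maternally expressed noncoding RNAs, Meg3 was the most abundant. It had 49026, 9188 and 2700 normalized counts in the controls and 26267, 6265 and 3568 in E3–E12 diet mice. Replicate 1 was the highest library of each diet, and the lowest of all 6 was control replicate 3, so the groups overlapped fully. The means were 20304 ± 25084 in controls and 12034 ± 12400 in E3–E12 diet mice (SD, n = 3), and the log2 fold change was -0.35 (standard error 1.26, 95% interval -3.37 to 2.67, exact permutation p = 0.8). This interval allows a difference of several-fold in either direction. Without control replicate 1 the log2 fold change of Meg3 was 0.75, and without E3–E12 diet replicate 3 it was 0.27. A gene on the opposite strand, Gm26906, shares 6.79% of the Meg3 exon bases, and reads of both cannot be told apart there unless strand was used in counting, which is not stated in the sources used here.

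Rian, the host of a large cluster of C/D box snoRNAs, had 2516, 36.8 and 237 normalized counts in the controls and 1492, 169 and 466 in E3–E12 diet mice. Control replicate 2 was the lowest of the 6 libraries and replicate 1 again the highest of each diet. The means were 930 ± 1377 and 709 ± 694 (SD, n = 3), lower in E3–E12 diet mice, whereas the log2 fold change was 0.80 (standard error 1.61, 95% interval -3.06 to 4.66, exact permutation p = 0.8). The difference of the means and the log2 fold change of Rian thus had opposite signs. Without control replicate 2 its log2 fold change was -0.66, and without E3–E12 diet replicate 1 it was -0.0048. Although Meg3 and Rian are read from the same strand of 1 domain, the ratio of their normalized counts was not constant: it was 19.5, 250 and 11.4 in the controls and 17.6, 37 and 7.66 in E3–E12 diet mice. The highest ratio was that of control replicate 2, in which Rian was low and Meg3 was not.

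H19, a fetal noncoding RNA that is mostly silenced after birth outside muscle, was barely detected. It had 42.3 normalized counts in control replicate 1 and 4.47 in E3–E12 diet replicate 1, and it was listed at 0 in the other 4 libraries. Both libraries with a value were thus numbered 1, where Meg3 and Rian also had their highest value of each diet.

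The growth inhibitors of the group were Grb10 and Cdkn1c. Grb10 (ENSMUSG00000020176, chr11:11930508-12038683, - strand, GRCm38) encodes an adaptor that binds the insulin and IGF1 receptors and dampens their signal, and in the brain it is expressed from the paternal allele in neurons and from the maternal allele in other cells. It had 620, 2.81 and 89.3 normalized counts in the controls and 897, 98.4 and 140 in E3–E12 diet mice. The groups overlapped, since control replicate 1 exceeded E3–E12 diet replicates 2 and 3. The means were 237 ± 334 and 378 ± 450 (SD, n = 3), and the log2 fold change was 1.96 (standard error 1.90, 95% interval -2.58 to 6.50, exact permutation p = 0.4). Without control replicate 2 the log2 fold change of Grb10 was -0.03.

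Cdkn1c (ENSMUSG00000037664, chr7:143458339-143461050, - strand) encodes p57Kip2, an inhibitor of cyclin-dependent kinases that drives cells out of the cell cycle. It had 112, 1.98 and 95.2 normalized counts in the controls and 167, 41.6 and 61.5 in E3–E12 diet mice. Apart from control replicate 2, all libraries lay between 41.6 and 167, and the groups overlapped. The means were 69.6 ± 59.1 and 89.9 ± 67.1 (SD, n = 3), with a log2 fold change of 1.26 (standard error 1.49, 95% interval -2.31 to 4.84, exact permutation p = 0.8). Without control replicate 2 it was -0.45. An antisense gene, Gm44732, shares 30.65% of the Cdkn1c exon bases, the largest such share among the members, so this value is uncertain.

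Of the paternally expressed genes, Peg3 and Peg10 were the most abundant. Peg3 (ENSMUSG00000002265, chr7:6703892-6730431, - strand) encodes a zinc finger protein needed for normal fetal growth and for maternal behavior. It had 3547, 65.3 and 1048 normalized counts in the controls and 2038, 920 and 824 in E3–E12 diet mice. The 3 E3–E12 diet values all lay inside the control range. The means were 1554 ± 1795 and 1260 ± 675 (SD, n = 3), lower in E3–E12 diet mice, while the log2 fold change was 0.88 (standard error 1.45, 95% interval -2.58 to 4.35, exact permutation p = 0.9). As for Rian the sign depended on control replicate 2, without which the log2 fold change of Peg3 was -0.74.

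Peg10 (ENSMUSG00000092035, chr6:4747306-4760517, + strand), a gene derived from a retrotransposon and required in the placenta, was ordered in another way over the libraries. It had 1943, 3543 and 1279 normalized counts in the controls and 1270, 2993 and 2691 in E3–E12 diet mice. Here control replicate 2 was the highest library and E3–E12 diet replicate 1 the lowest. The means were 2255 ± 1164 and 2318 ± 920 (SD, n = 3), with a log2 fold change of 0.07 (standard error 0.68, 95% interval -1.56 to 1.70, exact permutation p = 1.0). Peg10 had the narrowest interval of the 9 members. The highest library exceeded the lowest by 2.77-fold in controls and by 2.36-fold in E3–E12 diet mice, against 18.2-fold and 7.36-fold for Meg3. Its sign changed without control replicate 3 (-0.27), E3–E12 diet replicate 2 (-0.16) or E3–E12 diet replicate 3 (-0.08).

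In Plagl1 and Dlk1 the values spread widely among the E3–E12 diet libraries. Plagl1 (ENSMUSG00000019817, chr10:13060504-13131694, + strand), a zinc finger transcription factor that regulates other imprinted genes, had 232, 24.8 and 148 normalized counts in the controls and 254, 0.538 and 17.4 in E3–E12 diet mice. The E3–E12 diet group held both the highest and the lowest of the 6 values. The means were 135 ± 104 and 90.5 ± 141 (SD, n = 3), and the log2 fold change was -2.32 (standard error 1.89, 95% interval -6.83 to 2.19, exact permutation p = 0.5). It was the largest in size among the members, and it stayed below 0 with each library left out in turn, between -4.18 and -0.49.

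Dlk1, a transmembrane protein related to the Notch ligands that keeps precursor cells undifferentiated, had 81.5, 7.81 and 7.03 normalized counts in the controls and 453, 0.426 and 58.2 in E3–E12 diet mice. Again the E3–E12 diet group spanned the full range. The means were 32.1 ± 42.8 and 170 ± 246 (SD, n = 3), with a log2 fold change of 0.90 (standard error 2.14, the largest of the members, 95% interval -4.20 to 6.01, exact permutation p = 0.9). Without E3–E12 diet replicate 1 it was -0.97.

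Ndn (ENSMUSG00000033585, chr7:62346569-62350262, + strand, 1 exon) encodes necdin, a growth suppressor of neurons in the region whose human counterpart is lost in Prader-Willi syndrome. Ndn was listed at 0 in control replicate 2, against 42.5 and 37.6 normalized counts in the other controls and 60.1, 8.98 and 4.73 in E3–E12 diet mice. The mean of the normalized counts was lower in E3–E12 diet mice, opposite in sign to the log2 fold change, as for Rian and Peg3. The log2 fold change was 0.35 (standard error 1.68, 95% interval -3.67 to 4.37, exact permutation p = 0.8). The sign of Ndn changed without control replicate 2 (-1.43) or E3–E12 diet replicate 1 (-0.65), and also with a pseudocount of 10 (-0.12).

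**Figure D2:**
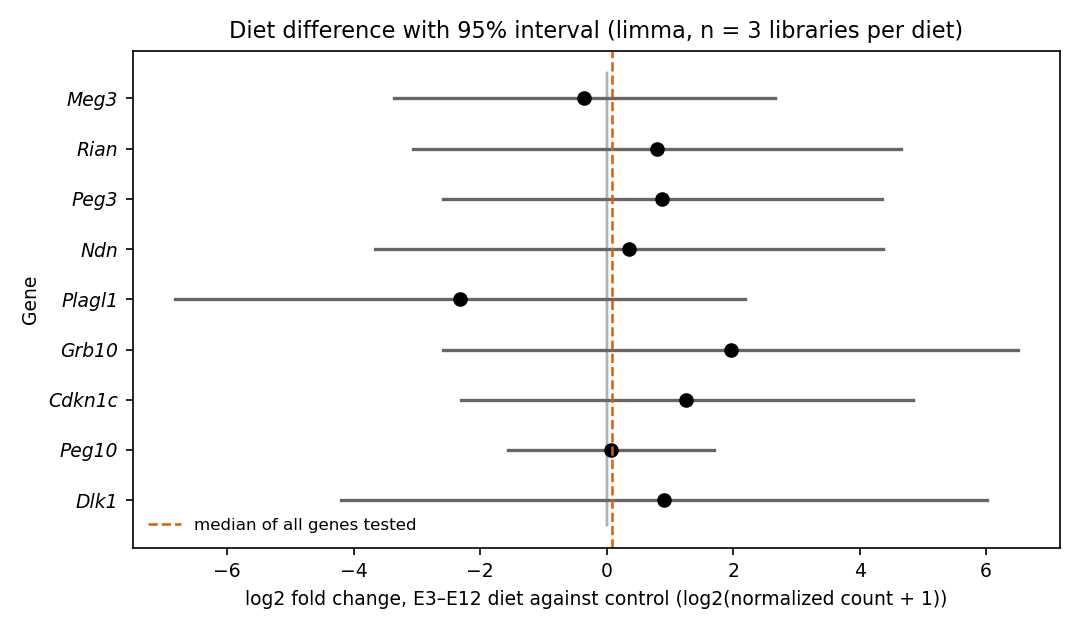
log2 fold change, E3–E12 diet against control, of the 9 members tested (horizontal axis, log2(normalized count + 1) scale), with points for the estimate and lines for the 95% interval from limma, n = 3 libraries per diet; the dashed line is the median of all genes tested, 0.087. All 9 intervals include 0, and that of Peg10 is the narrowest.

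Set side by side, 7 of the 9 members had a log2 fold change above 0, as did 54.4% of all genes tested, and the median was 0.80 for the members and 0.087 for all genes. This tally rested on single libraries. Without control replicate 2 only Dlk1 and Peg10 were above 0 (2 of 9, median -0.46, beside 49.6% of all genes), and without E3–E12 diet replicate 1 it was 4 of 9, beside 51.7%. The medians of the cell type marker lists lay on both sides of 0. Above 0 were the endothelial (1.21), astrocyte (0.89), oligodendrocyte precursor (0.34), mural and fibroblast (0.13) and neuron (0.09) lists. Below 0 were the microglia (-0.28), oligodendrocyte (-0.39), ependymal and choroid (-0.47), border macrophage (-0.50) and erythroid (-1.11) lists. The part of these cells in the tally was not tested. The spread was also larger for the members. The median SD of log2 values within a diet was 2.42 for the members and 1.07 for all genes, and the median standard error of the fold change was 1.61 against 0.85. For all 9 members the log2 fold change was smaller than the SD within a diet, as for 79.3% of all genes.

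The largest differences lay between libraries of the same diet. Replicate 1 was the highest library of its group in both diets for 8 of the 9 members tested, all but Peg10, against 20.1% of all genes tested. In controls, replicate 1 exceeded the next library by 10.6-fold for Rian, 10.4-fold for Dlk1, 6.94-fold for Grb10, 5.34-fold for Meg3 and 3.38-fold for Peg3. The excess was small for Plagl1 (1.57-fold), Cdkn1c (1.17-fold) and Ndn (1.13-fold). In E3–E12 diet mice it was 14.6-fold for Plagl1, 7.78-fold for Dlk1, 6.69-fold for Ndn, 6.41-fold for Grb10 and 4.19-fold for Meg3, and it was 3.2-fold for Rian, 2.71-fold for Cdkn1c and 2.22-fold for Peg3. The labels give the replicate number without a meaning, and nothing in them says that the libraries numbered 1 had a litter, day or batch in common. Control replicate 2 was the lowest of the 6 libraries for 5 of the 9 members (Rian, Peg3, Ndn, Grb10 and Cdkn1c), against 33.8% of all genes. When libraries were scaled to the same total, the count with replicate 1 highest was again 8 of 9, beside 31.2% of all genes, and with quantile normalization it was 7 of 9 beside 15.6%.

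Cell type markers moved across the same libraries. All 10 microglia markers were lowest in replicate 1 of both diets, with sums of 93062 and 96346 in control and E3–E12 diet replicate 1 against 508790 and 234684 in the other controls and 229314 and 290466 in the other E3–E12 diet libraries. The 5 border macrophage markers were also lowest there in both diets. The libraries numbered 1 had the lowest totals of normalized counts, 9671119 in control and 9407141 in E3–E12 diet. As a percentage of the total, the microglia marker sums were 0.962 and 1.02 there, against 1.97 to 2.96 in the other libraries. How many of all genes were lowest there in both diets was not counted. In contrast 6 of the 8 astrocyte markers were highest in replicate 1 of both diets, and their sums were 9266 and 9877 there and between 1835 and 5606 in the other libraries. The same held for 6 of the 9 neuron markers, with sums of 2043 and 2165 against 854 to 1266, and for 5 of the 8 mural cell and fibroblast markers, with sums of 15283 and 16815 against 1651 to 11869. It held for 0 of the 7 oligodendrocyte markers and for 1 of the 7 endothelial markers. The ependymal and choroid plexus markers had their highest sum, 39909, in E3–E12 diet replicate 1, where Dlk1 was also highest, and their lowest, 123, in E3–E12 diet replicate 2, where Dlk1 and Plagl1 were lowest. The other libraries did not follow this order: control replicate 3 had the next highest sum, 18697, with Dlk1 at 7.03, and E3–E12 diet replicate 3 had a sum of 598 with Dlk1 at 58.2. In bulk RNA fewer cells of a type and less RNA per cell cannot be told apart, and the part of these other cells in the values of the imprinted genes was not tested.

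**Figure D3:**
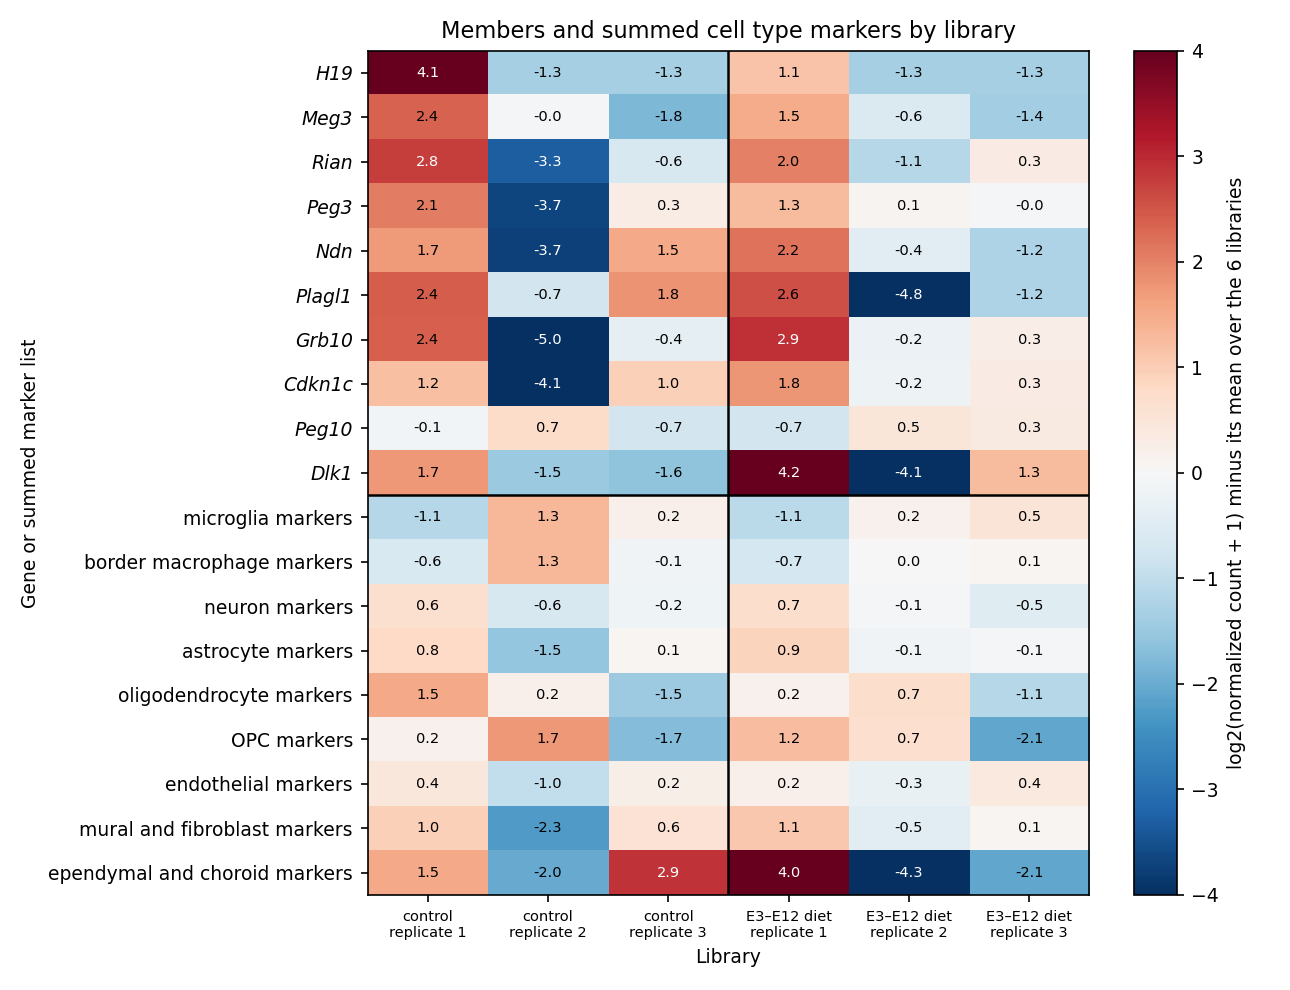
log2(normalized count + 1) minus its mean over the 6 libraries, for each member (upper rows) and for the summed markers of 9 cell types (lower rows), one column per library; red is above and blue below the mean, with colors saturated at 4 units. Replicate 1 of both diets is red for every member except Peg10 and blue for the microglia markers (-1.13 and -1.08).

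Across genes, levels were compared per kilobase of merged exon length. By the mean over 6 libraries the order was Meg3 (894 normalized counts per kb), Peg10 (343), Peg3 (106), Rian (44.9), Cdkn1c (39.1), Grb10 (33.9), Dlk1 (17.9), Plagl1 (14.4), Ndn (6.94) and H19 (3.17). The ranges over libraries overlapped for all 9 pairs of neighbours in this order. The place of Meg3 came from the libraries numbered 1. Per kb, the control libraries gave 2710, 508 and 149 for Meg3 against 291, 531 and 192 for Peg10. The E3–E12 diet libraries gave 1452, 346 and 197 for Meg3 against 191, 449 and 404 for Peg10. Peg10 thus exceeded Meg3 in 4 of the 6 libraries. Over the libraries numbered 2 and 3, the mean was 394 per kb for Peg10 and 300 for Meg3, and Cdkn1c (24.6) lay above Rian (12.5). At the low end H19 and Ndn both reached 0.

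For each of the 3 members with the highest mean log2 level, the 2 genes with the most similar profile over the 6 libraries were listed, by the root mean square difference of centred log2 values. For Meg3 these were 5330434G04Rik (0.26) and the sodium channel gene Scn9a (0.31), where the median over all genes was 1.80. Scn9a had 250, 57.8 and 13.3 normalized counts in the controls and 90, 22.1 and 17.8 in E3–E12 diet mice, the same order as Meg3 in both diets. For Peg10 they were Gm17586 (0.10) and Psd (0.13, median 1.14), and for Peg3 they were Gm12522 (0.27) and the olfactory receptor gene Olfr1157 (0.27, median 1.91). With only 6 libraries, such likeness is a description.

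Other imprinted genes were examined from a list of 50, of which 42 were in the table and 38 were tested. None passed (0 higher and 0 lower, limma with Benjamini-Hochberg adjustment, smallest adjusted p = 0.999), 0 had an unadjusted p under 0.05, and 0 had diet groups without overlap. Their median log2 fold change was 0.07, with 20 above and 18 below 0. Replicate 1 was highest in both diets for 11 of the 38 (28.9%). The smallest unadjusted p belonged to Tssc4, a maternally expressed gene of the Cdkn1c domain, with 175, 2.29 and 53.1 normalized counts in the controls and 268, 75.2 and 297 in E3–E12 diet mice. Its log2 fold change was 2.53 (standard error 1.5). Control replicate 2 was its lowest library, as for Cdkn1c, but Tssc4 was not refitted without that library. Slc22a18 (1.98, standard error 1.34) and Nespas (-1.74, standard error 1.55) came next. The most abundant genes of the list were Cd81, a tetraspanin of the cell surface (-0.26, standard error 0.83), Ppp1r9a (-0.37, standard error 0.76) and Gnas, the gene of the stimulatory G protein subunit (-0.23, standard error 0.80). Cd81 had 4186, 22421 and 10417 normalized counts in the controls and 4788, 8198 and 14370 in E3–E12 diet mice. For Cd81 replicate 1 was thus the lowest library of each diet, the reverse of Meg3.

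Of 18 tested genes that lie beside the members in their loci, some of them also in the list of other imprinted genes, 0 passed in either direction, and their median log2 fold change was -0.20. Lsp1, a leukocyte protein gene on the H19 side of chromosome 7, had 168, 962 and 653 normalized counts in the controls and 138, 230 and 237 in E3–E12 diet mice (log2 fold change -1.27, standard error 0.81). Control replicate 1 lay below the E3–E12 diet values of replicates 2 and 3, so the groups overlapped. Phactr2, beside Plagl1, had a log2 fold change of 0.36 (standard error 0.57). Of the 10 tested factors that maintain imprints, 0 passed, with a median of 0.10. Zfp57, the zinc finger protein that binds methylated imprinting control regions, had 175, 9.04 and 59.5 normalized counts in the controls and 708, 42 and 33.5 in E3–E12 diet mice (log2 fold change 1.10, standard error 1.53). Uhrf1, which recruits the maintenance methyltransferase, had 0.83 with a standard error of 0.75. Trim28, the corepressor bound by Zfp57, had a log2 fold change of -0.11 (standard error 0.60), Smchd1 of -0.37 (standard error 0.60) and Arid4a of -0.32 (standard error 0.61).

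The partners of Grb10 and Cdkn1c and the Notch pathway, to which Dlk1 is related, were read in the same way. Of 12 genes of insulin receptor signaling 0 passed, with a median log2 fold change of 0.31. Grb14, a relative of Grb10, had 172, 6.04 and 74.1 normalized counts in the controls and 221, 148 and 93.4 in E3–E12 diet mice (log2 fold change 1.70, standard error 1.22). The receptor gene Igf1r had 0.70 (standard error 0.62), and the substrates Irs1 and Irs2 had 1.59 (standard error 1.49) and 0.27 (standard error 0.62). Pik3r1, a regulatory subunit of PI3 kinase, had -0.45 (standard error 0.67), and 5 of the 12 genes were below 0. Of 14 cyclins, cyclin-dependent kinases and their inhibitors 0 passed, and the median was 0.14. In this list 2 genes had diet groups without overlap, where 5.90% of all genes did. Cdkn1a, the p21 inhibitor related to Cdkn1c, had 1124, 966 and 904 normalized counts in the controls and 1420, 3405 and 1878 in E3–E12 diet mice (log2 fold change 1.07, standard error 0.59). Cdk1, the mitotic kinase, had 45.4, 70.2 and 57.2 normalized counts in the controls and 128, 77.3 and 154 in E3–E12 diet mice (log2 fold change 1.01, standard error 0.58). Neither passed (limma adjusted p = 0.999 for each). Ccnb1, a mitotic cyclin, had the largest log2 fold change of those named, 2.6 (standard error 1.51), with control replicate 2 listed at 0. Of the most abundant genes, Cdk6 had -0.34 (standard error 0.64) and Ccnd1 had -0.14 (standard error 0.56), and 5 of the 14 genes were below 0.

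Of 12 genes of the Notch pathway 0 passed, and the median log2 fold change was 0.87. Notch1, a receptor of the pathway, was the 1 gene of these 12 without overlap between diets, beside 5.90% of all genes tested. It had 3959, 3287 and 3817 normalized counts in the controls and 1946, 2594 and 1380 in E3–E12 diet mice (log2 fold change -0.94, standard error 0.56, limma adjusted p = 0.999). Rbpj, the DNA-binding factor of the pathway, had a log2 fold change of -1.34 (standard error 0.75), and Hes1, a target gene, had 3.35 (standard error 2.02) with control replicate 2 listed at 0. Notch2 and Notch3 had -0.06 (standard error 0.63) and 0.43 (standard error 0.61).

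**Figure D4:**
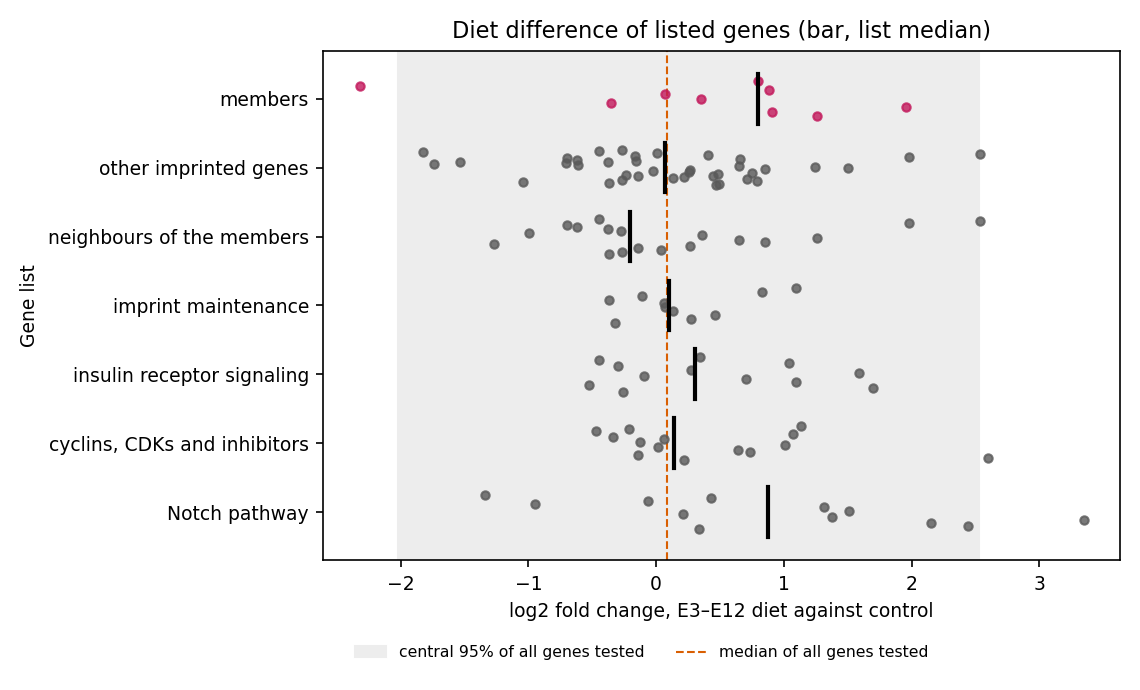
log2 fold change, E3–E12 diet against control (horizontal axis), of each tested gene (points) in the members and in 6 further gene lists, with a bar at the list median; the shaded band holds the central 95% of all genes tested, from -2.02 to 2.53. List medians run from -0.20 for the neighbours of the members to 0.87 for the Notch pathway, and no gene shown passed the adjusted threshold.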

How the data were processed

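RNA from 6 pooled microglia libraries (3 per diet) was sequenced. By the study's methods the RNA was amplified first, and its effect on the values was not tested. The submitters' processing notes name FastQC, STAR, featureCounts and DESeq2 with GRCm38, with no versions. The authors deposited normalized counts per gene, a scaled signal and not raw counts. The name of the table mentions surrogate variables, and how they entered is not given in the sources used here. The low values did not fall on whole multiples of 1 read, so reads could not be recovered, depth is unknown and no count test was run. A read length of 75 bp is given in the labels and a shorter one in the methods. Symbols were matched for 26507 of 26789 Ensembl identifiers, and 18007 genes with a mean of at least 10 were tested.

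Diets were compared on log2(normalized count + 1) with limma (3.58.1, R 4.3.3; lmFit and eBayes), two-sided, with Benjamini-Hochberg adjustment over all genes tested and a threshold of 0.1. A test on simulated data came first, and it required recovery of known changes only at a spread far below that of these data. It therefore does not say how large a change could be detected here. Exact permutation tests were two-sided. Lengths, exons and overlaps came from the GENCODE annotation of GRCm38, and sequences from RefSeq. The named genes were all members, the 2 nearest profiles of the 3 most abundant members and, of each other list, up to 3 genes with the smallest p and up to 3 with the highest level. Cdkn1a, Cdk1 and Notch1 fell under this rule. Members and lists were chosen with earlier results of these data known. The alternatives were other pseudocounts, filters, scalings and covariates, the replicate number as a block, and each library left out in turn. Chosen after seeing the data were leaving out both libraries numbered 1 and the recounts of how often replicate 1 was highest and of the members above 0. Whether litters within a diet share a cage or day is not stated, so the libraries may not be independent, as the p-values assume.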

Additional observations from a re-analysis of the deposited data

How the results depend on the processing

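None of the 9 members passed an adjusted p of 0.1 under any of the 16 alternatives (smallest adjusted p = 0.615, limma with principal component 1 of the residuals as covariate). Of 143 member values, 129 kept their direction and 14 reversed. By construction the direction could not change with another filter, the replicate block, a mean-variance trend or the principal component. An unadjusted p under 0.05 arose for Grb10 and Cdkn1c with the principal component, where 1423 of 18007 genes had one. It arose for Plagl1 without E3–E12 diet replicate 1, where 347 of 18007 genes had one, and for members under no other alternative. The principal component was computed from residuals of these same values, so its p-values can be too small. With a pseudocount of 10 the log2 fold change of Ndn was -0.12. With each library left out in turn, the log2 fold changes ranged from -0.45 to 2.17 for Cdkn1c, -0.97 to 3.19 for Dlk1, -0.03 to 3.65 for Grb10, -1.34 to 0.75 for Meg3, -1.43 to 1.29 for Ndn, -0.27 to 0.46 for Peg10, -0.74 to 2.13 for Peg3, -4.18 to -0.49 for Plagl1 and -0.66 to 2.37 for Rian; Rian without E3–E12 diet replicate 1 gave -0.0048. Members above 0 numbered 2 to 8 of 9 with 1 library left out, the lowest without control replicate 2. Of all genes, 3 passed with a pseudocount of 0.1 (Slc4a1ap, Gm12666 and Prdm4, chosen after their values were seen) and 1 with a mean of at least 50 (Prdm4), each listed at 0 in all 3 libraries of 1 diet, and 0 under every other alternative. An unadjusted p under 0.05 was found for 207 genes with a mean of at least 50, for 1423 with the principal component, and for 276 to 551 with 1 library left out, the highest without control replicate 1. Genes without overlap numbered 2263 to 3197 with 1 library left out and 5002 without both libraries numbered 1, where fewer libraries make separation more frequent by construction. Scaling to equal totals moved the median log2 fold change of all genes from 0.087 to 0.198.

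With the replicate block, 468 genes had an unadjusted p under 0.05, 0 of them members, and 0 genes passed the adjusted threshold (smallest value 0.98, limma). In the other gene lists of the imprinted network the block gave an unadjusted p under 0.05 for 1 gene, Tssc4, which did not pass after adjustment. The deviations of same-numbered libraries correlated at 0.26, 0.0348 and 0.142 for numbers 1, 2 and 3, and at 0.151 over all same-numbered pairs. Control replicates 1 and 3 correlated best with the E3–E12 diet library of their own number. Control replicate 2 correlated best with E3–E12 diet replicate 3 (0.0869). Whether same-numbered libraries had a day or batch in common is not stated and was not tested.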
